A study of Rattus norvegicus with 192 samples.

Results

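The 10 immediate early genes Fos, Fosb, Fosl2, Junb, Egr1, Egr2, Nr4a1, Arc, Npas4 and Dusp1 were followed across nucleus accumbens core libraries of outbred heterogeneous stock rats. They were picked by symbol from a deposited table of 38354 genes and 159 libraries, and all 10 averaged 1 CPM or more (CPM, the expected count of a gene scaled to a library total of 1000000). The series sequenced polyA RNA, and its labels state no treatment, sex, age or batch, so libraries were grouped by the form of the rat identifier. Each library carried its own identifier and was taken as 1 rat. Levels were read over the 147 libraries in which Drd1, the D1 dopamine receptor of striatal projection neurons, reached at least 100 CPM. Of these, 12 had an E21 identifier assigned by the submitters on the basis of genotype (corrected E21), 76 had an original E21 identifier and 56 had an all-digit identifier (numeric). The remaining 3 carried other identifiers, 2 of them starting with AA1. The meaning of the identifier forms is not stated in the labels. Of the 12 libraries left out, 11 had at least 100 CPM of Th, a marker of midbrain dopamine neurons, and in those 11 the levels of 8 of the 10 members lay below the whole range of the 147, beside 6.62% of all genes.

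Immediate early genes are transcribed within minutes of a stimulus, without new protein synthesis, when calcium, cyclic AMP or growth factor signals reach transcription factors such as CREB, SRF and MEF2 that already sit on their promoters. Their RNAs are short-lived, so their level reflects the recent past of a cell. In the striatum they respond to dopamine and glutamate input to medium spiny neurons and are widely used as a readout of neuronal activity. Most encode transcription factors, and Arc and Dusp1 encode proteins that act at the synapse and on MAP kinases.

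Medium spiny neuron markers were high in all 147 libraries, where the 12 genes of that list summed to between 4359 and 10191 CPM. Total expected counts per library, in units of 1000000, ran from 14.6 to 61.2 with a median of 22.9. Within the 147, 3 libraries stood apart from the median profile. They were E21 numbers 5, 2 and 76, whose correlation with the median profile was 0.931, 0.958 and 0.959, against at least 0.970 in the other 144. The chaperone Hsp90aa1 was at 37.5, 241 and 190 CPM in them and between 332 and 1390 CPM in the other 144. Results that rest on these libraries are also given without them. The tissue was bulk, so fewer cells of a type and less RNA per cell cannot be told apart. Markers of cortical glutamatergic neurons were also present, and their 8 genes summed to between 737 and 1697 CPM in corrected E21, 479 and 3209 CPM in E21, and 530 and 2109 CPM in numeric libraries. None of the 8 was at 0 in every library.

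Promoter windows of RefSeq (assembly GRCr8), from 250 bases before to 50 after the annotated start, were matched for 8 of the 10 genes by symbol. Fos and Arc had no window and were not scanned. The windows of 4 are shown because they hold different response elements: the serum response (CArG) box in the Egr genes, the full cyclic AMP response element (CRE) in Dusp1 and binding sites of the EGR family in Fosl2. Each window runs 5′ to 3′ on the strand of the gene, and capitals mark the motif. The windows are Egr1 (chr18:26736828-26737127, plus strand), Egr2 (chr20:21054392-21054691, minus strand), Dusp1 (chr10:17184603-17184902, plus strand) and Fosl2 (chr6:30039220-30039519, minus strand), with the CArG box in capitals for Egr1 and Egr2, TGACGTCA for Dusp1 and GCGNGGGCG for Fosl2.
Egr1: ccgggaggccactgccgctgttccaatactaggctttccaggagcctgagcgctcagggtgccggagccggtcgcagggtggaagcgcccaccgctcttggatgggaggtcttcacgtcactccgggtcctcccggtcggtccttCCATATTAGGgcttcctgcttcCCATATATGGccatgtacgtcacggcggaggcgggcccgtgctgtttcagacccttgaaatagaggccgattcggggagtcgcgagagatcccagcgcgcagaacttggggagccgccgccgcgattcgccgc
Egr2: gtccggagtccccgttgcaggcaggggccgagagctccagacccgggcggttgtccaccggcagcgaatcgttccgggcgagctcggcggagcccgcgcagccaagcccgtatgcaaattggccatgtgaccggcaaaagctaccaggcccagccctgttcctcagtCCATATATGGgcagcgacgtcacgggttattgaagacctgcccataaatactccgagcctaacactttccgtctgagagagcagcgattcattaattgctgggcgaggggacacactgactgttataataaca
Dusp1: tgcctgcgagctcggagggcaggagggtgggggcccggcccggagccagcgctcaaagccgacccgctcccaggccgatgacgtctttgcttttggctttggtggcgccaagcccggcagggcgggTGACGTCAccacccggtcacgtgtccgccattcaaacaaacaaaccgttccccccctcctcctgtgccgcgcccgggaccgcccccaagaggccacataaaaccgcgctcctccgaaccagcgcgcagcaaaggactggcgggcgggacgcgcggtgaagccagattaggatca
Fosl2: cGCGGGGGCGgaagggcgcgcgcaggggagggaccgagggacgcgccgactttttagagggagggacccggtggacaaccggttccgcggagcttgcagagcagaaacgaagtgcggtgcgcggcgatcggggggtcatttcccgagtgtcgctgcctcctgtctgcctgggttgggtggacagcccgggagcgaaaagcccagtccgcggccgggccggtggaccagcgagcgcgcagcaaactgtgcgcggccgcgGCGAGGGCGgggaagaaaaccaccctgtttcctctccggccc

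Egr1 had 2 CArG boxes, the first starting 105 and the second 83 bases before the start, and Egr2 had 1, also starting 83 bases before it. The box at that shared distance had the same letters in both genes, CCATATATGG. Over both strands, a CArG box was in 2 of the 8 windows, against 1.64% of 33469 rat promoter windows of that length. TGACGTCA was in 1 of the 8 (Dusp1), against 1.83% of all windows. Its first 5 letters, TGACG, were found in 5 of the 8 (Junb, Egr1, Egr2, Nr4a1 and Dusp1), against 21.2%, and this shorter motif lies within the full one. The EGR motif GCGNGGGCG was in 2 of the 8 (Fosl2 and Nr4a1), against 4.98%. The AP-1 motif TGANTCA and the NR4A motif AAAGGTCA were in none of the 8, against 7.33% and 1.43%. A match is a run of letters and not a measured site.

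The 4 members that encode AP-1 subunits differed in how widely they varied. Fos, the dimer partner that gives AP-1 its fast, transient component, had 3.25 CPM in the lowest, 11.5 in the median and 31.2 in the highest library. That is a 9.60-fold range, and the lowest value came from E21 number 5, one of the 3 libraries that stood apart. Fosb, whose truncated product ΔFosB builds up in the accumbens under repeated drug exposure, had 11.1 CPM at the lowest, 20.4 at the median and 36.3 at the highest. Fosl2, a slower Fos relative also called Fra-2, had 16.3 CPM in the lowest, 34.9 in the median and 74.8 in the highest library. Junb, a Jun family partner that restrains c-Jun, had 35.0, 77.4 and 137 CPM at the same points. Across the 147 libraries the SD of log2(CPM + 1) was 0.66 for Fos, against 0.38 for Fosl2, 0.35 for Junb and 0.34 for Fosb. The table does not separate FosB from ΔFosB, which come from splicing of the same gene.

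The zinc finger, orphan receptor and bHLH factors also split by spread. Egr1, also called Zif268 and a marker of plasticity, had 85.3 CPM in the lowest, 142 in the median and 274 in the highest library. Egr2, its relative known from hindbrain patterning and myelination, had 3.20, 8.29 and 23.9 CPM at those points. Nr4a1, the orphan nuclear receptor Nur77, had 22.4, 64.7 and 162 CPM. The widest relative range was in Npas4, a bHLH-PAS factor that in neurons responds to calcium entry with little response to other stimuli, at 1.58 CPM in the lowest, 7.73 in the median and 24.2 in the highest library, or 15.3-fold. Its SD of log2(CPM + 1) was 0.72, against 0.57 for Nr4a1, 0.51 for Egr2 and 0.36 for Egr1.

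The effector genes Arc and Dusp1 differed in spread. Arc, whose protein regulates AMPA receptor removal at active synapses, had 26.1 CPM in the lowest, 96.5 in the median and 213 in the highest library, with an SD of 0.62. Dusp1, the phosphatase that switches off MAP kinases, had 15.8, 32.7 and 67.7 CPM and an SD of 0.45. The median SD of the 15327 genes averaging 1 CPM or more was 0.24, and each of the 10 members was above it. Npas4 ranked 254th from the top, Fos 354th, Arc 411th and Nr4a1 534th. An SD of at least 0.5 was reached by 5 of the 10 members and by 777 of the 15327 genes. Poisson counting error on the same scale, computed from the counts, was 0.10 for Npas4, 0.08 for Fos and 0.03 for Arc.

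**Figure D1:**
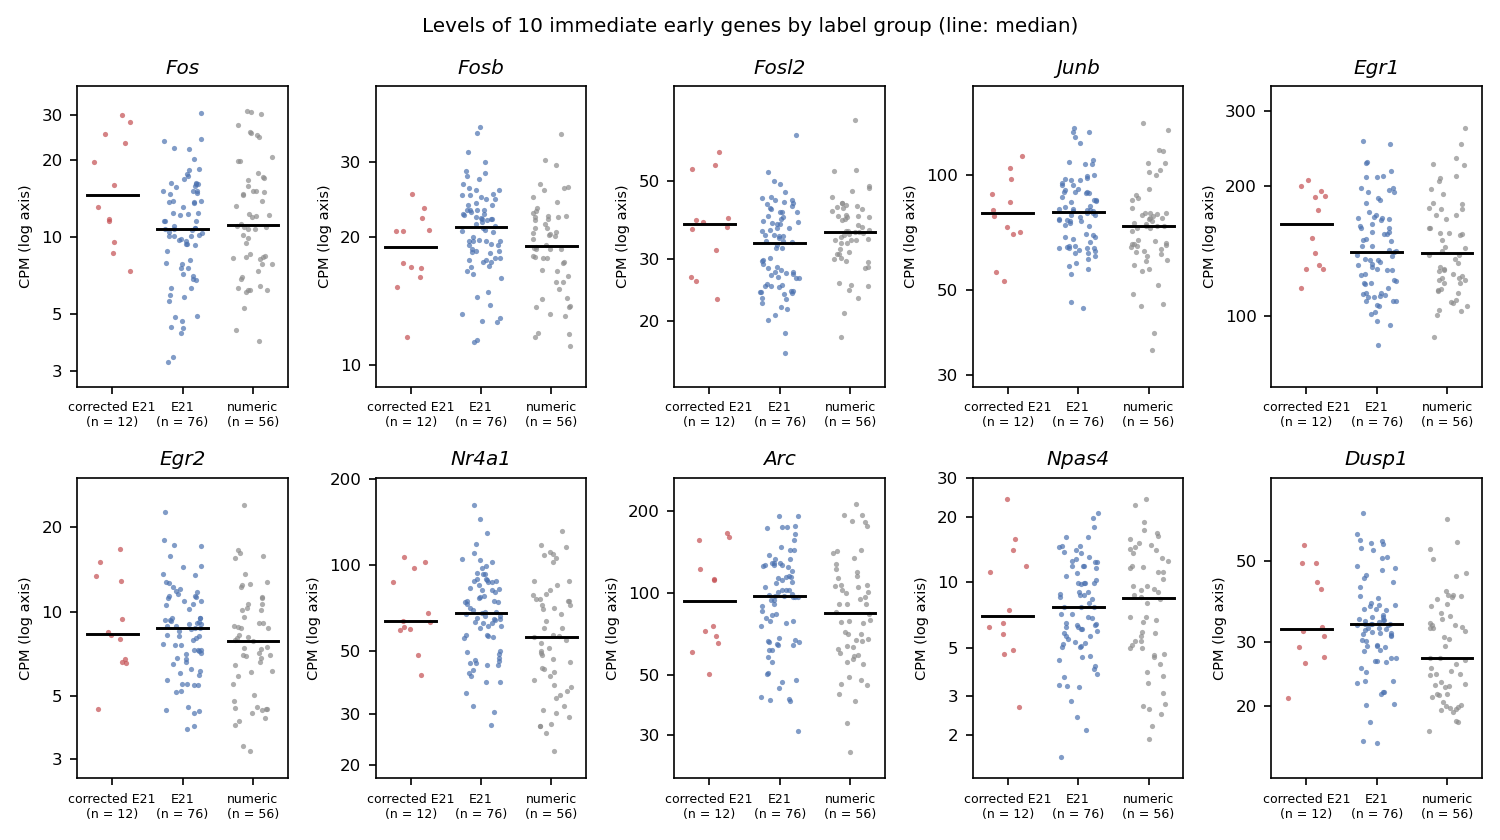
Level of each of the 10 genes (CPM, log axis) in every library of the corrected E21 (n = 12), E21 (n = 76) and numeric (n = 56) groups, 1 point per library, with a line at the group median. The 3 groups overlap for every gene. Each panel has its own axis range, so heights cannot be compared between panels. Fos ran from 3.25 to 31.2 CPM and Npas4 from 1.58 to 24.2 CPM, against 11.1 to 36.3 CPM for Fosb.

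Some libraries were extreme for several members. Numeric number 40 had the highest level of 6 members, with 24.2 CPM of Npas4, 213 of Arc, 274 of Egr1, 23.9 of Egr2, 137 of Junb and 74.8 of Fosl2. It was also second highest for Fos, at 31.0 CPM, but only the 21st highest for Dusp1, at 46.4 CPM. Among the 15 libraries with the highest Fos, 12 were among the 15 highest for Npas4, 10 for Arc and 9 for Egr1, but only 2 for Fosb. At the low end, 11 of the 15 libraries with the lowest Fos were among the 15 lowest for Arc, and 1 for Fosb. For the remaining members this low-end overlap was between 4 (Fosl2 and Egr2) and 7 (Npas4) of the 15. E21 number 5 was the lowest library for Fos while it had the second highest Fosb (35.2 CPM) and the fourth highest Dusp1 (57.2 CPM).

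**Figure D2:**
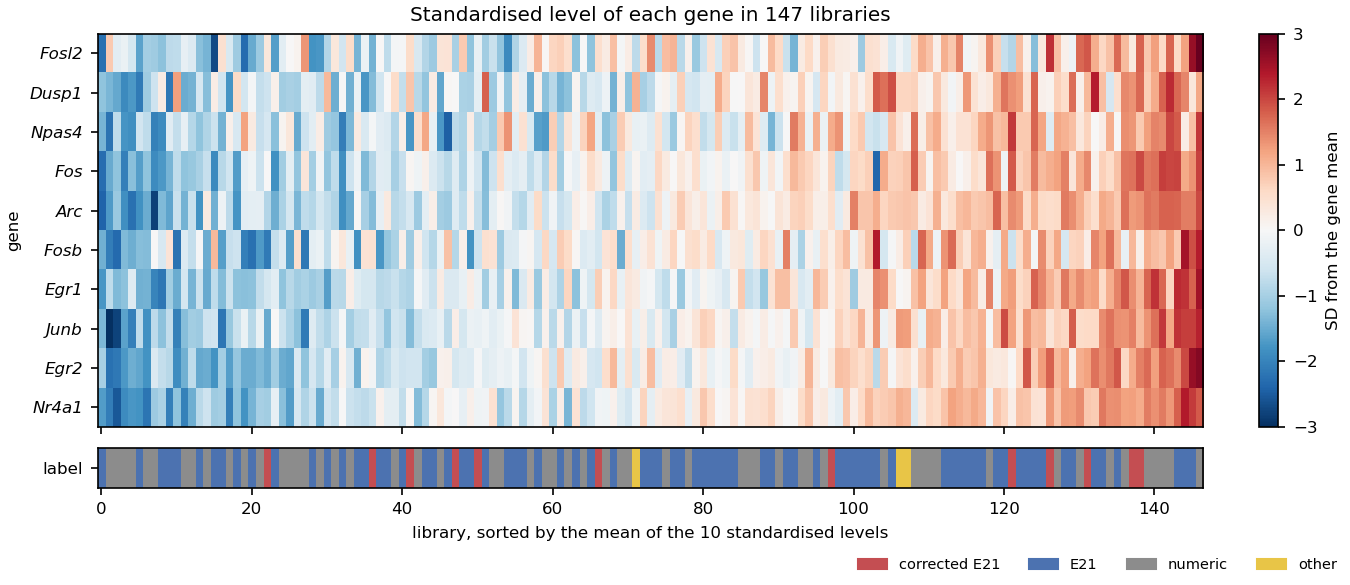
Standardised log2(CPM + 1) of each of the 10 genes (rows) in the 147 libraries (columns, sorted by the mean over the genes), in SD from the mean of the gene, with the label group of each library in the strip below. The rows grade from blue to red together in part, and the mean r of a gene with the other 9 is lowest for Fosl2 (0.431) and Npas4 (0.485).

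All 45 pairs of members had a positive correlation across the 147 libraries. Pearson's r of log2(CPM + 1) ran from 0.145 to 0.861 with a mean of 0.592 and was at least 0.5 in 31 pairs, and Spearman's rho ran from 0.120 to 0.851 with a mean of 0.587. In a permutation test (two-sided, 100000 resamples), 39 of the 45 pairs reached the smallest p that the resamples can give, 1e-05, with Pearson's r, and 44 had p under 0.05. Leaving out the 2 libraries farthest from the median of the first gene moved r by at most 0.0485 in any pair. Within label groups the mean r was 0.631 in corrected E21 libraries, 0.540 in E21 and 0.679 in numeric, and every pair stayed positive in each. Without the 3 libraries that stood apart the mean was 0.601.

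Egr2 and Nr4a1 had the closest relation, with r = 0.861 and rho = 0.851. Fos and Arc followed, with r = 0.851 over all 147 libraries and 0.897 without the 3 that stood apart, where E21 number 5 had low Fos beside 144 CPM of Arc. Within label groups, Fos and Arc had r = 0.959 in corrected E21, 0.827 in E21 and 0.913 in numeric libraries. Arc rose by 0.81 ± 0.041 (SE) on the log2 scale per log2 unit of Fos, with limma's adjusted p of 2.9e-39 over all genes. Junb with Nr4a1 (0.830), Junb with Egr2 (0.796), Nr4a1 with Arc (0.793), Junb with Arc (0.764) and Fos with Npas4 (0.756) came next.

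The loosest pairs involved Fosl2, Fosb and Npas4. Fosl2 and Npas4 had r = 0.145 (permutation p = 0.081) and rho = 0.120 (permutation p = 0.146), and their slope was not called by limma in either direction (adjusted p = 0.191 for Npas4 on Fosl2 and 0.257 for Fosl2 on Npas4). Fosb and Npas4 had r = 0.262 (permutation p = 0.0016), and limma called Npas4 on Fosb (adjusted p = 0.0070) but not Fosb on Npas4 (adjusted p = 0.053). Fosl2 and Dusp1 had r = 0.249 (permutation p = 0.0022). Fos and its own relative Fosb had r = 0.322, below the r of Fos with any other member.

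**Figure D3:**
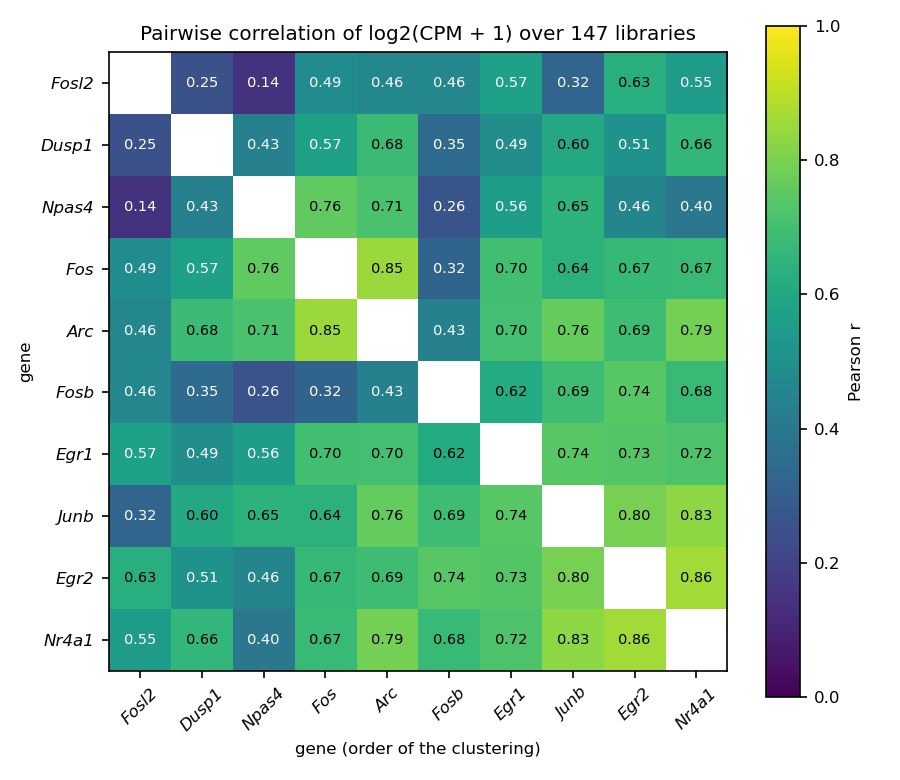
Pearson's r of log2(CPM + 1) over 147 libraries for each pair of the 10 genes, in the order of an average-linkage clustering, coloured from 0 to 1. The highest cells are Egr2 with Nr4a1 (0.861) and Fos with Arc (0.851), and the lowest is Fosl2 with Npas4 (0.145).

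**Figure D4:**
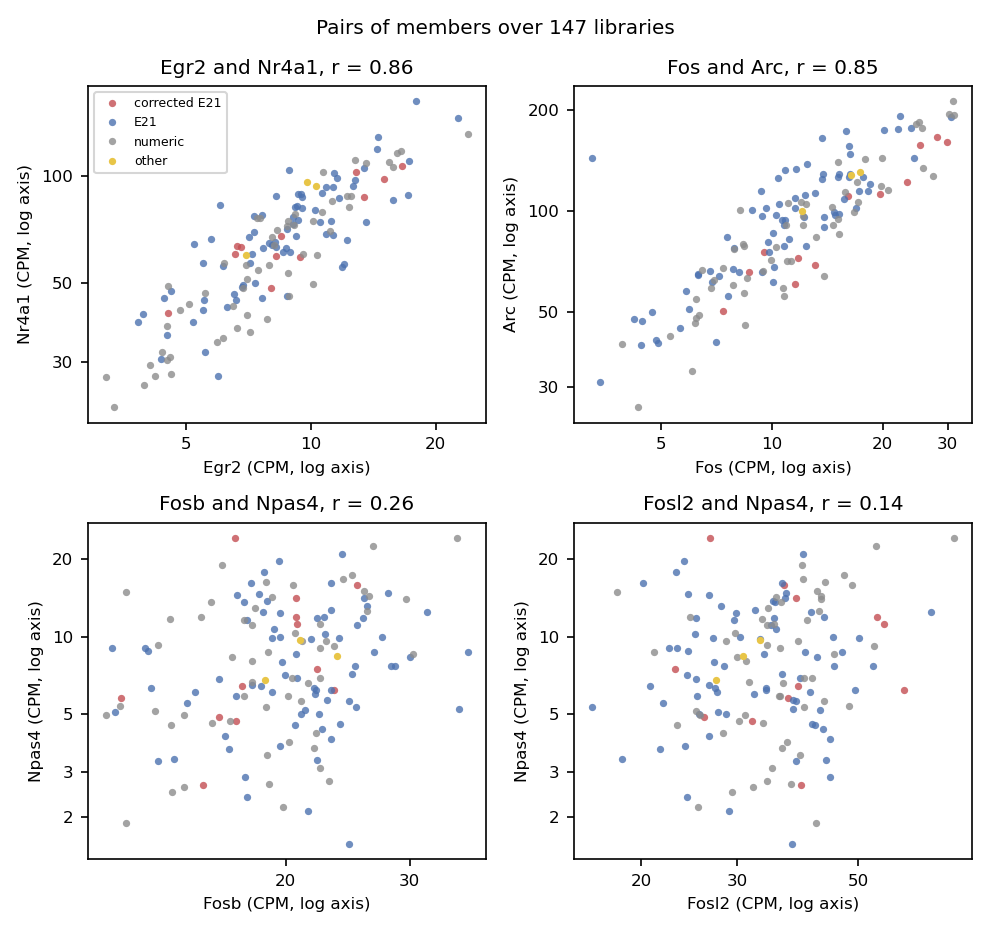
CPM of 4 pairs of members (log axes), 1 point per library, coloured by label group. Egr2 with Nr4a1 and Fos with Arc fall along a line in every group, while the points of Npas4 with Fosb (r = 0.262) and with Fosl2 (r = 0.145) scatter widely.

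Set against all genes, the members were each other's neighbours. Of the 90 ordered pairs (1 member on the level of another), 48 had the second member among the 10 genes with the highest r of the 15326 compared, and 77 had it among the top 100. limma, fitted on all genes with Benjamini-Hochberg adjustment at 0.05, called 87 of the 90 positive. The share of all genes called positive was 10.9% on Fos, 8.55% on Fosb, 10.4% on Fosl2 and 4.78% on Junb. It was 12.2% on Egr1, 2.22% on Egr2, 1.05% on Nr4a1, 1.72% on Arc, 1.23% on Npas4 and 19.5% on Dusp1. Each of the 9 other members was called on Fos, Fosb, Junb, Egr1, Egr2, Nr4a1, Arc and Dusp1. The lowest rank of any member by its r with Arc was 31, with Egr2 32 and with Nr4a1 43. The lowest rank overall was 2957, for Npas4 by its r with Fosl2.

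Clustering on 1 − r separated Fosl2 first and Dusp1 second. At 4 groups, a number chosen after the values were seen, Fos, Arc and Npas4 formed one group with a mean r of 0.773 among themselves. Fosb, Junb, Egr1, Egr2 and Nr4a1 formed another with a mean of 0.741. Fosl2 stood alone with a mean r of 0.431 to the others, and Dusp1 stood alone with 0.507. In the numeric libraries taken alone, Dusp1 joined Fos, Arc and Npas4 while Fosb and Fosl2 each stood apart, and in the E21 libraries alone Fos and Arc joined the larger group while Npas4, Fosl2 and Dusp1 stood apart. The first principal component held 64.4% of the variance of the 10 standardised genes, with loadings of the same sign for all. The second held 12.2%, with Fosb (0.460) and Fosl2 (0.445) at one end and Npas4 (−0.535) and Fos (−0.306) at the other.

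Taking out the level of Fos by regression left 32 of the remaining 36 pairs positive, with a mean partial r of 0.324. Egr2 with Fosb (0.748), Egr2 with Nr4a1 (0.747) and Junb with Nr4a1 (0.703) stayed high. The partial r of Fosl2 with Npas4 was −0.391 and that of Nr4a1 with Npas4 was −0.231. Arc with Npas4, at 0.711 before, had 0.197 after Fos was taken out.

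Genes outside the members that were most alike were largely other rapid response genes. For Fos they were the antiproliferative Btg2 (r = 0.729), the kinase Sik1 (0.678), the ERK phosphatase Dusp6 (0.631), the growth arrest gene Gadd45g (0.618), the matricellular Ccn1 (0.613), the eIF2α phosphatase subunit Ppp1r15a (0.568), the AP-1 partner Jun (0.567), Trib1 (0.560), Klf10 (0.544) and Ier2 (0.543). For Arc, Sik1 (0.750), Btg2 (0.735), Arl4d (0.684), Dusp6 (0.682), Gadd45g (0.658), Ppp1r15a (0.580), Ccn1 (0.576), Egr4 (0.575), Gpr3 (0.537) and Dusp5 (0.533) led. For Dusp1 the list was partly different, with Btg2 (0.695), the flow-responsive factor Klf2 (0.691), the endothelial early response gene Apold1 (0.654), Dusp6 (0.646), Siah2 (0.579), Gadd45g (0.576), the NF-κB inhibitor Nfkbia (0.573), Atg4d (0.563), Nfil3 (0.560) and Sik1 (0.558). These correlations are over 147 libraries, and the genes were chosen by them.

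The other members each had a nearest outside gene from a known family. Fosl2 had Nr4a3, the third NR4A receptor, at r = 0.861, above its r with any member, then Midn (0.693) and Sbk1 (0.625). Nr4a3 ran from 9.72 to 52.2 CPM, with a median of 21.3. Fosb had Egr4 (0.737), Spata2L (0.629) and Phlda1 (0.622), and Egr1 had Egr4 (0.751), Sik1 (0.730) and the neuropeptide precursor Vgf (0.637). Junb was nearest to Sik1 (0.765), Arl4d (0.754) and Egr4 (0.727), and Nr4a1 to Sik1 (0.777), Arl4d (0.677) and Egr4 (0.672). Egr2 was nearest to Sik1 (0.678), Egr4 (0.658) and Slc25a25 (0.658), and Npas4 to Gadd45g (0.703), Ccn1 (0.620) and Btg2 (0.580).

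Among lists of activity-dependent genes, most of the other rapid response genes rose with Fos in the main fit, and none of the upstream regulators did. Of 32 tested genes in the list of other rapid response genes, limma called 26 positive and 0 negative on Fos, beside 10.9% of all genes positive and 3.91% negative. Their median slope was 0.20 log2 units per log2 unit of Fos, against 0.01 over all genes. Examples were Btg2 (0.53 ± 0.041, SE), Dusp6 (0.31 ± 0.032), Gadd45g (0.32 ± 0.034) and Sik1 (0.32 ± 0.029). Of the 32, 22 had r of at least 0.5 with some member, against 117 of the 15317 genes outside the members. Jund and Egr3, named here after their values were seen, had r of −0.04 and 0.02 with Fos, and Egr3 had its highest r with Fosb (0.52). Within label groups, 19 of the 32 were called positive in E21 and 15 in numeric libraries, where the share of all genes is not given here.

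Of 14 slower activity-dependent genes, 7 were called positive and 0 negative on Fos, beside 10.9% and 3.91% of all genes. The prostaglandin synthase Ptgs2 had a slope of 0.26 ± 0.037 (SE), the neuritin gene Nrn1 0.64 ± 0.138, Bdnf 0.52 ± 0.120 and the pentraxin Nptx2 0.23 ± 0.050. With the cortical score in the fit the count was 4 of 14, and it was 2 in E21 and 0 in numeric libraries alone. Of 20 upstream regulators, which include Creb1, Srf, the MEF2 factors and the MAP kinases, 0 were called positive, beside 10.9% of all genes. Called negative were 2, Elk1 (−0.05 ± 0.012) and the kinase Map2k1 (−0.08 ± 0.027), beside 3.91% of all genes. With the cortical score in the fit, 7 of the 20 were called positive, so the count of 0 held for the main fit only in part. The shares of all genes called with the cortical score or within label groups are not given here, so those counts have no background beside them. None of the 20 had r of 0.5 or more with any member.

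The scores of other gene lists, each the mean standardised level of its genes, moved with some members. On the score of cortical glutamatergic markers 5 members rose, and limma's slopes per unit of score were 0.27 for Fos, 0.22 for Arc, 0.16 for Fosl2, 0.16 for Egr1 and 0.13 for Dusp1. Fosb fell with that score, by 0.08, but was not called under median-of-ratios scaling (−0.07, adjusted p = 0.081) or with the label group in the fit (−0.06, adjusted p = 0.112). These 6 of 10 calls stand beside 45.0% of all genes called in either direction. On Fos itself, 7 of the 8 cortical markers were called positive, beside 10.9% of all genes. Among them were Slc17a7 (1.08 ± 0.22, SE), Tbr1 (0.87 ± 0.18), Neurod2 (0.75 ± 0.16) and Emx1 (0.49 ± 0.10). With the cortical score taken out, the mean r of the 45 pairs was 0.609 and Fos with Arc had 0.835.

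In the main fits, every member called on the glial and endothelial scores was lower where the score was higher. Oligodendrocyte markers were matched by lower Fosb, Junb, Egr1, Egr2 and Npas4, 5 of 10 called beside 50.9% of all genes, with slopes from −0.19 for Npas4 to −0.13. Astrocyte markers were matched by lower Fosb (−0.14), Junb (−0.13) and Egr1 (−0.15), 3 of 10 beside 50.9%. Endothelial markers were matched by lower Fosb (−0.11), 1 of 10 beside 41.9%, but Fosb was not called under median-of-ratios scaling (−0.08, adjusted p = 0.051). There Arc was called higher instead (0.18), as it was without the 3 libraries that stood apart (0.22). These shares are at or below those of all genes, and the part of glia in the levels was not tested. With log2 of the total count, Junb (−0.20), Nr4a1 (−0.33) and Dusp1 (−0.30) fell, 3 of 10 beside 33.6%, and 1 of 10 was called, Dusp1 at −0.26, without the 3 libraries that stood apart. With the label group or the correlation to the median profile in the fit, 0 of 10 were called on the total count.

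Response genes of other systems moved with some members and not others. Genes induced by glucocorticoids, such as Sgk1 and Mt2A, were matched by lower Npas4 (−0.37), Arc (−0.30), Fos (−0.28), Egr1 (−0.18) and Junb (−0.16), 5 of 10 called beside 30.4% of all genes. On Fos, 3 of those 8 genes were called negative, beside 3.91% of all genes. They were Sgk1 (−0.26 ± 0.089, SE), Mt2A (−0.19 ± 0.063) and Cdkn1a (−0.18 ± 0.057). Under median-of-ratios scaling, and without the 3 libraries that stood apart, 5 of the 8 were called negative. Within numeric libraries alone limma called none of the 8, with Sgk1 at −0.02 (adjusted p = 0.991) and Cdkn1a at −0.05 (adjusted p = 0.949). Within E21 alone it called Sgk1 (−0.51, adjusted p = 0.014) and Cdkn1a (−0.31, adjusted p = 0.036) but not Mt2A. With the cortical score in the fit, Sgk1 was not called (−0.19, adjusted p = 0.138), while Mt2A, Cdkn1a and Zbtb16 were called negative. The shares of all genes called negative on Fos in these other fits are not given here. Clock output genes such as Dbp, whose level follows the time of day, were matched by lower Arc (−0.34), Fos (−0.26) and Dusp1 (−0.20), 3 of 10 beside 40.5%. With the cortical score in the fit, Arc alone of these 3 was called on the clock score (−0.26). Under median-of-ratios scaling Dusp1 was not called on that score (−0.14, adjusted p = 0.053), and Fosb was called higher (0.16). Of the 8 clock output genes, only Dbp (−0.11 ± 0.027, SE) and Bhlhe41 (−0.12 ± 0.026) were called on Fos, both negative, beside 3.91% of all genes.

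The score of the heat shock list rose with all 10 members. limma called 10 of 10 positive, beside 14.5% of all genes, with slopes of 0.71 for Fos, 0.56 for Arc, 0.50 for Egr2, 0.50 for Nr4a1, 0.42 for Fosl2, 0.40 for Npas4, 0.33 for Egr1, 0.24 for Dusp1, 0.20 for Junb and 0.18 for Fosb. Without the 3 libraries that stood apart, in which Hsp90aa1 was low, 10 of 10 were again called, and Fos had a slope of 0.69. When no genes were filtered out, 8 of 10 were called positive on the score. On Fos, 3 of the 6 heat shock genes were called positive, beside 10.9% of all genes. They were Hspa1b (0.35 ± 0.053, SE), Hspa1a (0.23 ± 0.050) and Hsp90aa1 (0.20 ± 0.069). Hsp90aa1 was not called under median-of-ratios scaling (0.15, adjusted p = 0.102) or without the 3 libraries that stood apart (0.09, adjusted p = 0.144), which left 2 of 6. Under median-of-ratios scaling 8.26% of all genes were called positive on Fos. Dnajb1 (0.02), Hsph1 (0.04) and Hspb1 (−0.05) were not called on Fos, though Hsph1 was with the cortical score in the fit (0.09). Within numeric libraries alone limma called none of the 6 on Fos, and within E21 alone only Hspa1b (0.40, adjusted p = 0.0029). The shares of all genes without the 3 libraries that stood apart or within label groups are not given here. Hspa1a and Hspa1b are near-identical copies, so reads can be split between them either way, and both enter the score. With the cortical score in the fit, Dusp1 was no longer called on the heat shock score.

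**Figure D5:**
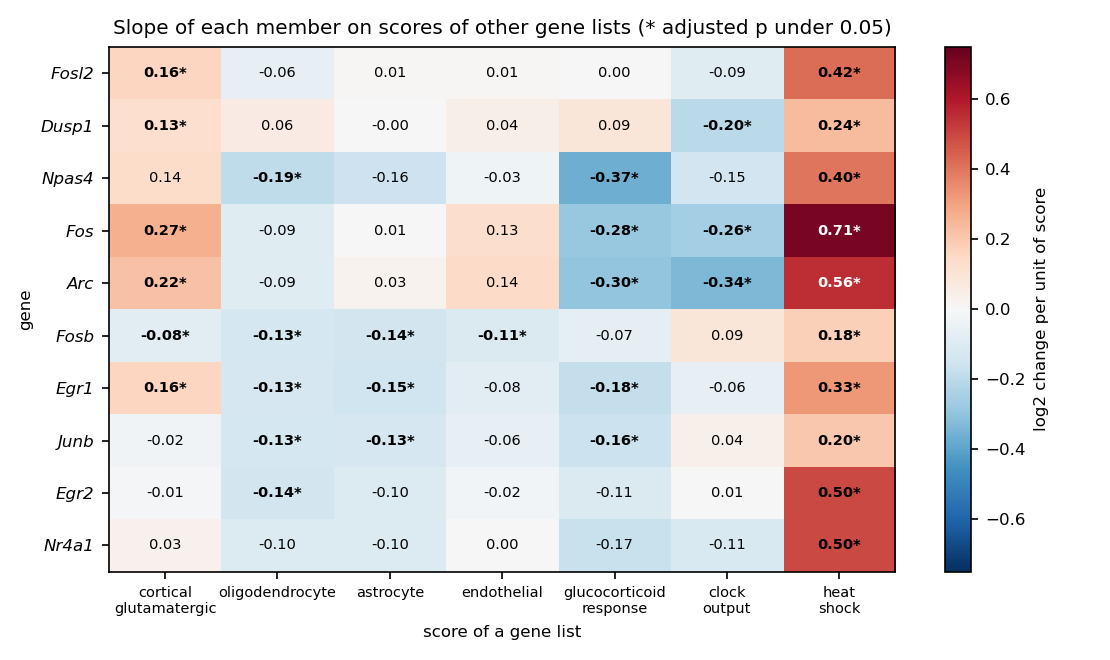
limma slope of each of the 10 genes (rows) on the score of 7 other gene lists (columns), in log2 units per unit of score, with an asterisk where the adjusted p over all genes was under 0.05. The heat shock column is positive for all 10 genes, from 0.18 for Fosb to 0.71 for Fos, and the glucocorticoid column is most negative for Npas4 (−0.37).

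Of the 10 members, 2 passed the test between E21 and numeric libraries. Nr4a1 had 27.5 CPM in the lowest, 68.1 in the median and 162 in the highest E21 library, against 22.4, 56.2 and 132 in numeric libraries. Dusp1 had 15.8, 33.5 and 67.7 CPM in E21 and 17.1, 27.1 and 64.9 CPM in numeric libraries at the same points. The groups overlapped almost throughout for both genes, with higher medians in E21. limma called Nr4a1 (log2 change of E21 over numeric 0.26 ± 0.099, SE, adjusted p = 0.030) and Dusp1 (0.21 ± 0.077, adjusted p = 0.024), n = 76 and 56. These 2 of 10 compare with 37.6% of all genes called in either direction.

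The split of all calls between E21 and numeric depended on scaling, with 1807 genes higher and 3951 lower in E21 under total count scaling and 2808 higher and 2793 lower under median-of-ratios scaling. Both Nr4a1 and Dusp1 were called higher under either scaling, and Junb (0.16, adjusted p = 0.036) only under the second. Without the 3 libraries that stood apart, all of them E21, Dusp1 was at 0.18 (adjusted p = 0.054). It was at 0.13 (adjusted p = 0.24) with the correlation to the median profile in the fit, and Nr4a1 had an adjusted p of 0.061 when no genes were filtered out. With the cortical score in the fit, Arc was also called, at 0.30 (adjusted p = 0.018), where it had been at 0.12 (adjusted p = 0.415).

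No member passed the test between corrected E21 and E21 libraries. Fos had 7.37 CPM in the lowest, 14.6 in the median and 29.9 in the highest corrected E21 library, against 3.25, 10.8 and 30.7 in E21 libraries. The 2 ranges overlapped, with the higher median in corrected E21. The log2 change of corrected E21 over E21 was 0.49 ± 0.191 (SE, n = 12 and 76) with limma's adjusted p of 0.093, and 0.24 (adjusted p = 0.38) with the cortical score in the fit. limma called 0 of the 10 members, beside 8.14% of all genes. Its unadjusted p was under 0.05 for 1 of the 10 members and for 3524 of the 15327 genes. Over all genes, 957 were higher and 290 lower in corrected E21 under total count scaling, and 721 and 506 under median-of-ratios scaling.

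The slope of the members on Fos was compared between E21 and numeric libraries by an interaction term. Dusp1 had r = 0.368 with Fos in E21 libraries and 0.842 in numeric ones, and its slope on Fos was lower in E21 by 0.31 ± 0.092 (SE). limma called 0 of 15326 genes (0%), and 530 had an unadjusted p under 0.05. For Dusp1 the unadjusted p was 0.0012 and the adjusted p 0.957. The other 8 members had slope differences between −0.21 for Npas4 and −0.04 for Fosl2, with adjusted p-values of at least 0.957. A difference of these sizes was thus not resolved once all genes were considered.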

How the data were processed

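Per the labels, polyA RNA of the nucleus accumbens core was sequenced in 192 libraries, of which 159 are in the table used here and 33 are marked as removed. The authors quantified reads with kallisto 0.48, per the submitters' processing notes. Each value the authors deposited is on the log2 scale (log2 of expected count + 1) with no scaling to depth, as judged from the values. Neither build, annotation, strand setting nor gene summing is given in the sources used here. Of 38349 gene symbols found in RefSeq GRCr8, 38278 (99.8%) had a table position equal to an end of that gene, and no gene coordinates are printed. Reads shared with overlapping genes or near-identical copies make such values uncertain.

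Values were turned back to expected counts, divided by the library total and scaled to 1000000 (CPM), and log2(CPM + 1) was used for all tests, which understates changes of low genes. Because 12 libraries had Drd1 below 100 CPM, they were left out of the main results. Tests covered the 15327 genes averaging 1 CPM or more. limma 3.58.1 in R 4.3.3 was fitted with an intensity trend, two-sided, over all of these genes with Benjamini-Hochberg adjustment at 0.05, for each label comparison, for the level of each member, for each list score and for the interaction with Fos. Permutation tests of the 45 pairs used 100000 resamples. Simulated data with known changes were used to check both tests. The members, gene lists and tests were chosen with earlier results of these data known, and the 3 libraries that stood apart were set after the values were seen. They had a Pearson correlation below 0.96 with the median log2 profile of the libraries.

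The text names all 10 members, the 10 most alike outside genes for Fos, Arc and Dusp1 and the 3 most alike for each other member (symbols made from a locus number left out), up to 4 genes per list and markers of lists whose score moved with a member. Alternatives were another scaling, a pseudocount of 0.1, no filter, all libraries, and fits with the cortical score, label group or profile correlation. Further software was scipy 1.17.1, numpy 2.4.6 and pandas 2.3.3 under Python 3.11.15, with matplotlib 3.10.9 for figures. No libraries had identical values.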

Additional observations from a re-analysis of the deposited data

How the results depend on the processing

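Adding the 12 libraries of other profiles, in 11 of which most members were low, changed the most values. In that set the E21 against numeric comparison called 7 members, beside 47.7% of all genes, and put Egr1 at 0.48 instead of −0.02. The corrected E21 comparison called 791 genes, the interaction with Fos called 2886 genes and 9 members, and calls of members over depth and all scores numbered 55 (36 in the main fits). That set held 15427 genes, and the shares of all genes called on depth and each score there are not given here. Slopes turned their sign with all libraries on the cortical score (Fosb 0.26, Junb 0.24 and Egr2 0.31), the astrocyte score (Fos −0.19, Fosl2 −0.43 and Arc −0.80), the endothelial score (Fosl2 −0.24, Nr4a1 −0.35 and Arc −0.36), the clock score (Fos 0.11, Fosl2 0.49, Egr1 0.90, Nr4a1 0.70, Arc 0.86, Npas4 0.52 and Dusp1 0.0736) and the heat shock score (Fosb −0.79, Fosl2 −0.23, Junb −0.64, Egr1 −0.77, Egr2 −0.48, Nr4a1 −0.45, Arc −0.74 and Npas4 −0.34). Gpr3 on Arc had −0.016 there, against 0.30. Upstream regulators called on Fos numbered 15 with all libraries and 7 with the cortical score, against 0. Slower activity-dependent genes called on Fos numbered 4 with the cortical score, 2 within E21 and 0 within numeric, against 7, and other rapid response genes 15 within numeric, against 26. The shares of all genes called on Fos in these other settings are not given here. With profile correlation in the fit, E21 against numeric called 3742 genes, against 5758. The members called there were 1 without a filter, 1 with profile correlation in the fit (Nr4a1) and 1 without the 3 libraries that stood apart, against 2. At 3 groups, 27 of the 45 pairs of members were placed as in the main clustering with profile correlation in the fit, within numeric and with all libraries. The causes were not tested. Under median-of-ratios scaling the share of all genes called positive on Fosb was 17.1%, on Junb 11.3%, on Nr4a1 2.73% and on Arc 3.62%. Called pairs of members stayed between 76 and 90 of 90 in every setting. No paired analysis was possible because the label groups share no replicate numbers that stand for the same animal. The lowest level of a member was 1.58 CPM of Npas4, and 1 CPM was 14.6 expected counts in the shallowest library.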

Other observations

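The 12 libraries with Drd1 under 100 CPM were labelled as the same tissue and showed the members at other levels. In 11 of them (10 numeric, 1 E21) Th, the rate-limiting enzyme of dopamine synthesis and a marker of midbrain dopamine neurons, was at least 100 CPM. Egr1 was between 6.33 and 15.9 CPM in those 11, against 85.3 to 274 CPM in the 147 libraries. Arc was between 3.77 and 8.38 CPM there, against 26.1 to 213 CPM, and Egr2 was between 0.078 and 0.679 CPM, against 3.20 to 23.9 CPM.

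Fosb, Fosl2, Junb, Nr4a1 and Npas4 were also below the whole range of the 147 libraries in each of the 11. Fosb was between 0.735 and 3.30 CPM and Nr4a1 between 4.67 and 10.3 CPM. Fos, between 3.92 and 9.13 CPM, and Dusp1, between 12.7 and 27.0 CPM, overlapped with the 147. So 8 of the 10 members were lower without overlap between the profiles, as were 1015 of all 15327 genes (6.62%), and 12.3% of all genes did not overlap in either direction. The remaining library, numeric and with a low Th, had 16.5 CPM of Fos, 199 of Egr1 and 53.1 of Arc, all within the range of the 147. No test was made, since these libraries were set apart by measured levels.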
